A study of Mus musculus with 88 samples.

Results

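Genes that mark the choroid plexus (9 of the 48811 genes with a row in any of the tables) were followed across 88 RNA-seq libraries: Ttr, Enpp2, Sostdc1, Folr1, Kl, Clic6, Kcne2, Kcnj13 and Aqp1. They were chosen by symbol, as a sign of how much ventricular tissue entered a dissection, with earlier results of these data known. The libraries came from the medial prefrontal cortex (mPFC, 32), the bed nucleus of the stria terminalis (BNST, 28) and the ventral hippocampus (vHPC, 28) of 8-week-old male mice of the inbred strains C57BL/6Crl (B6) and DBA/2Crl (D2), spelled C57BL/6NCrl and DBA/2NCrl in the study's methods. Defeated mice had met a CD1 aggressor daily for 10 d of chronic social defeat stress (CSDS) and were called resilient or susceptible by their avoidance of an unfamiliar CD1 mouse relative to control mice of the same strain. A control lived beside another control, kept from touching it, and once CSDS had ended every mouse lived alone until it was killed by cervical dislocation 6 to 8 d later. In the mPFC there were 6 B6 mice of each phenotype, 6 D2 controls and 8 D2 susceptible animals. In the BNST each B6 phenotype had 5 mice, and D2 had 5 controls, 3 resilient and 5 susceptible animals. In the vHPC, B6 gave 6 controls, 8 resilient and 3 susceptible mice, and D2 gave 6 controls and 5 susceptible ones.

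The choroid plexus is a sheet of epithelium inside the brain ventricles that makes the cerebrospinal fluid. Its cells secrete carrier and signalling proteins, take up vitamins and hormones from blood, and move ions and water through channels in their membranes. The temporal horn of the lateral ventricle, which holds choroid plexus, runs along the ventral hippocampus, and the BNST lies next to the lateral ventricle. Some of the 9 genes are also used elsewhere: Enpp2 in oligodendrocytes, Kl in neurons and Aqp1 in red blood cells.

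Levels are given as log2 CPM, the reads of a gene scaled to a fixed total of reads per library, where 0 is 1 CPM. The 3 regions were prepared with different kits and normalized apart, so their levels are set side by side and were not tested against each other. In the vHPC table all 9 genes had a row. In the mPFC table Folr1, Kcne2 and Sostdc1 had none, which left 6. In the BNST all 9 had a row, but Folr1, Kcne2, Kcnj13 and Aqp1 did not reach 1 CPM in 6 libraries and were not tested, which left 5. The BNST libraries held 11825757 to 25793910 counted reads (median 15273698), and the files give no depth for the other regions.

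In the vHPC, the libraries differed in ways that touch each result from this region. No library preparation set there held both control and defeated B6 mice. Genes that separated the strains in the BNST by more than 3 on the log2 scale also moved after stress in the vHPC: of 88 such genes, 87 moved in the direction that leads from B6 to D2 controls when resilient B6 mice were set against controls (slope on the strain difference 0.322), 86 for susceptible B6 mice (0.46) and 87 for D2 mice (0.237). In the mPFC 55, 59 and 67 of 88 such genes moved in that direction in the same comparisons, with slopes of 0.026, 0.05 and 0.043. Stress, library set and this shift cannot be told apart in the vHPC of B6 mice.

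On GRCm38, Enpp2 lies on chromosome 15 (54838901 to 54952892, minus strand), Folr1 on 7 (101858331 to 101870788, minus), Kl on 5 (150952607 to 150993817, plus), Clic6 on 16 (92485736 to 92541243, plus), Kcne2 also on 16 (92292389 to 92298129, plus), Kcnj13 on 1 (87386363 to 87394729, minus), Aqp1 on 6 (55336432 to 55348555, plus) and Sostdc1 on 12 (36314139 to 36318452, plus). All are protein-coding genes, and Folr1 overlaps Anapc15, Kcnj13 overlaps Gigyf2 and Enpp2 overlaps Gm26684 on the other strand, while Clic6 overlaps 2410124H12Rik on the same strand. The counting is not stated to have used strand, so shared reads cannot be told apart.

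The promoter windows of 4 of the 9 genes were found in RefSeq, and the 250 bases before the start of Kcnj13, Kcne2 and Aqp1 are shown, as genes of 1 epithelium whose levels moved together in the vHPC. Build GRCm38.p6 places them at chr1:87394730-87394979 on the minus strand, chr16:92292139-92292388 on the plus strand (the first of 2 starts) and chr6:55336049-55336298 on the plus strand. They run 5′ to 3′ along the gene. The Aqp1 window lies before a RefSeq start that is upstream of the start given above for that gene (55336432).
Kcnj13: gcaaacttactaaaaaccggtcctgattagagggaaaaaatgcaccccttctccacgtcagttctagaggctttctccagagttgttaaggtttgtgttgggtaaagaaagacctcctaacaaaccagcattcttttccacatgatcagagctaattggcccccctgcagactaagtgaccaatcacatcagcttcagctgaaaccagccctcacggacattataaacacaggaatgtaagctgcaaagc
Kcne2: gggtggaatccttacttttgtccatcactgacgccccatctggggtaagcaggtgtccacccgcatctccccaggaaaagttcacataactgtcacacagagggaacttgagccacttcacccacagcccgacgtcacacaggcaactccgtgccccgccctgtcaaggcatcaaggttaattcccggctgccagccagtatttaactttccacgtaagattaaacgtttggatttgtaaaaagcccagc
Aqp1: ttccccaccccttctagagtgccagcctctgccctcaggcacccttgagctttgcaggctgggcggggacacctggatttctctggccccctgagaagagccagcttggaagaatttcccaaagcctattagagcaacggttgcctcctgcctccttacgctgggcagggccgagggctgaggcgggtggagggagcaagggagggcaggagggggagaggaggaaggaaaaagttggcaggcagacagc
Neither TAATCC, the core bound by the choroid plexus factor Otx2, nor the forkhead motif GTAAACA was found on either strand of these windows, nor in that of Kl or the second start of Kcne2, so no letters are in capitals. Of 32851 windows of this length in the table, 6.25% held the first motif and 3.17% the second. The windows were 45.2% (Kcnj13), 52.4% (Kcne2, first start) and 62.0% (Aqp1) G or C.

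Ttr, which encodes transthyretin, the thyroid hormone and retinol carrier of the cerebrospinal fluid, spanned 9.68 on the log2 scale across the vHPC mice, from 2.29 CPM in a susceptible D2 mouse to 1880 CPM in a control B6 mouse. In B6 controls it was 4.21 at lowest, 8.01 at the median and 10.88 at highest. In resilient B6 mice the same values were 3.95, 7.38 and 9.96. The 3 susceptible B6 mice measured 4.73, 5.81 and 3.41. D2 controls lay at 3.26, 4.26 and 8.84 (lowest, median and highest). The 5 susceptible D2 mice measured 2.62, 5.3, 6.87, 1.193 and 5.74. Every group spread over several log2 units, the groups overlapped, and the 8 mice above the widest gap in Ttr (from 6.87 to 8.43) were 3 B6 controls, 4 resilient B6 mice and 1 D2 control. Ranked per kilobase of exon, Ttr was the 5th to 32nd most abundant gene in those 8 libraries and the 13545th in the lowest. Fewer choroid plexus cells in the tissue and less RNA of each gene per cell cannot be told apart in such bulk samples.

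**Figure D1:**
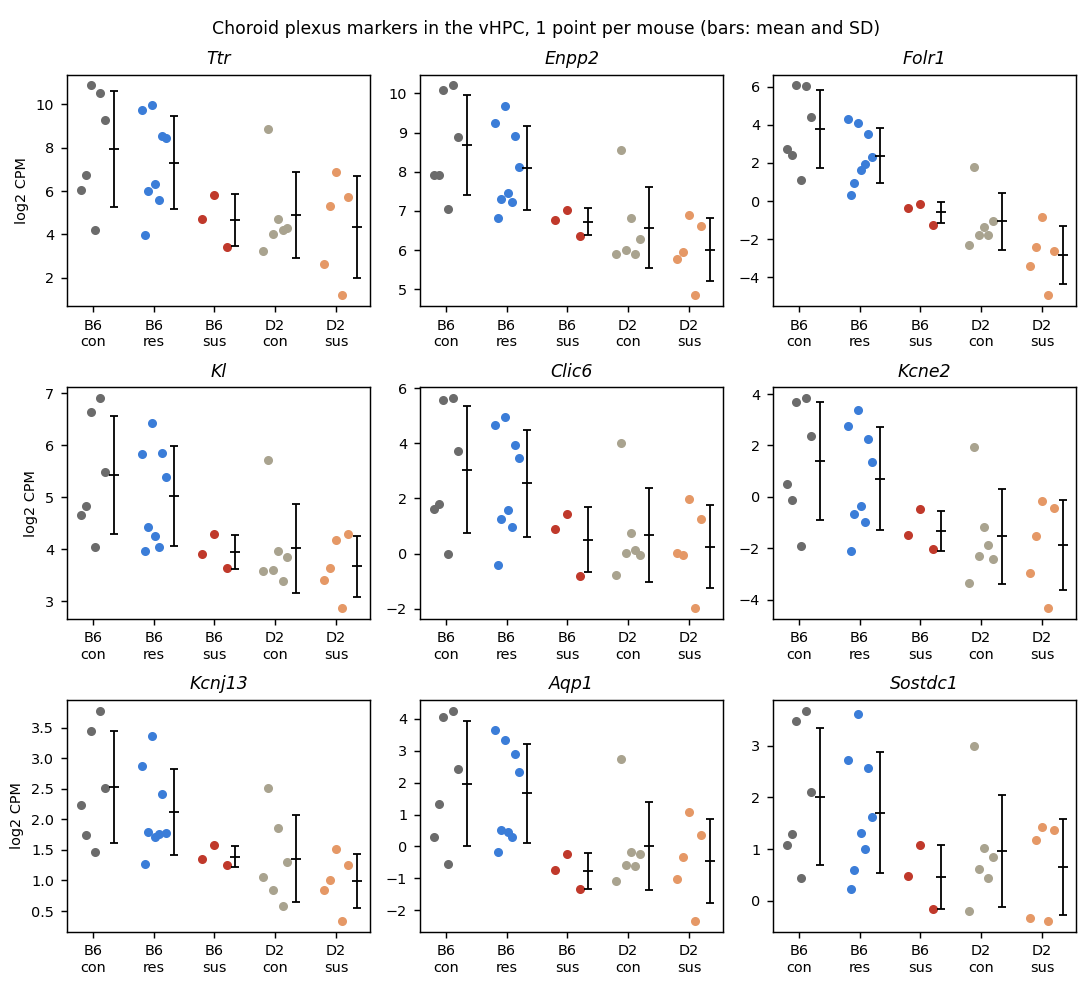
Level (log2 CPM, y axis) of each of the 9 genes in every vHPC mouse, by strain and phenotype (con, control; res, resilient; sus, susceptible); points are mice and bars the mean and SD. For Ttr, 3 of the 6 B6 controls, 4 of the 8 resilient B6 mice and replicate 2 of the D2 controls reach 8.43 or more and no susceptible mouse does. The other panels also show spread within the groups. The susceptible B6 mice lie closer together than the B6 controls (SD 1.201 against 2.677 for Ttr, 0.166 against 0.923 for Kcnj13).

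Enpp2, which encodes autotaxin, the enzyme that makes lysophosphatidic acid, ran from 4.84 to 10.213, and its 3 susceptible B6 values (6.77, 7.04 and 6.35) all lay under the lowest B6 control at 7.06. Sostdc1, a secreted antagonist of BMP and Wnt signals, ran from −0.39 to 3.68. Of the receptors, Folr1, the folate receptor that carries folate into cerebrospinal fluid, had the widest span of the 9. It was 1.09, 3.55 and 6.09 (lowest, median and highest) in B6 controls, 0.30, 2.138 and 4.295 in resilient B6 mice and −2.31, −1.57 and 1.81 in D2 controls. The 3 susceptible B6 mice measured −0.38, −0.17 and −1.24, and the susceptible D2 mice −3.40, −2.41, −0.83, −4.96 and −2.61. Folr1 was under 1 CPM in all 8 susceptible mice and above it in every other B6 mouse. The D2 controls other than replicate 2 were under 1 CPM as well (highest of them −1.028). Kl, which encodes α-klotho, the co-receptor of FGF23, ran from 2.87 to 6.91. Of the channel genes, Clic6 (a chloride intracellular channel protein) ran from −1.99 to 5.65, Kcne2 (a β subunit of potassium channels) from −4.34 to 3.85, Aqp1 (the water channel) from −2.34 to 4.25 and Kcnj13 (the inward rectifier Kir7.1) from 0.33 to 3.78. The SD over mice of each of the 9 genes, 0.861 to 2.88, was larger than that of 97.1% or more of the 19559 genes, whose median was 0.202.

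Mouse by mouse, the 9 genes varied together in the vHPC. With the group means removed, each gene's Pearson r with Ttr lay between 0.877 (Kcnj13) and 0.982 (Kcne2), and Spearman's ρ between 0.856 and 0.967 (n = 28). All 16 values had a permutation p of 1e-05, the smallest that 100000 permutations within groups can give (2.12e-05 adjusted over 34 relations). Without the 2 mice farthest from the median of Ttr, r was 0.861 to 0.979, and with the means of the library sets removed in place of the group means it was 0.894 to 0.985. Taken on each side of the widest gap in Ttr, r was 0.704 (Folr1) to 0.949 (Kcne2) in the 20 mice below and 0.784 (Sostdc1) to 0.95 (Kcne2) in the 8 above. For each log2 unit of Ttr, Kcne2 moved 0.85, Clic6 0.818, Folr1 0.681 and Aqp1 0.668, while Sostdc1 moved 0.478, Enpp2 0.442, Kl 0.377 and Kcnj13 0.275. Within single library sets the mean of the 9 genes spanned 1.54 to 5.08 (set 1, defeated mice only), 0.68 to 5.42 (set 7, with 1 resilient B6 mouse and 2 D2 controls) and 1.76 to 6.10 (set 9, control mice only). Other sets were narrow, such as set 8 (1.43 to 1.98) and set 4 (0.549 to 1.42, 2 mice).

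**Figure D2:**
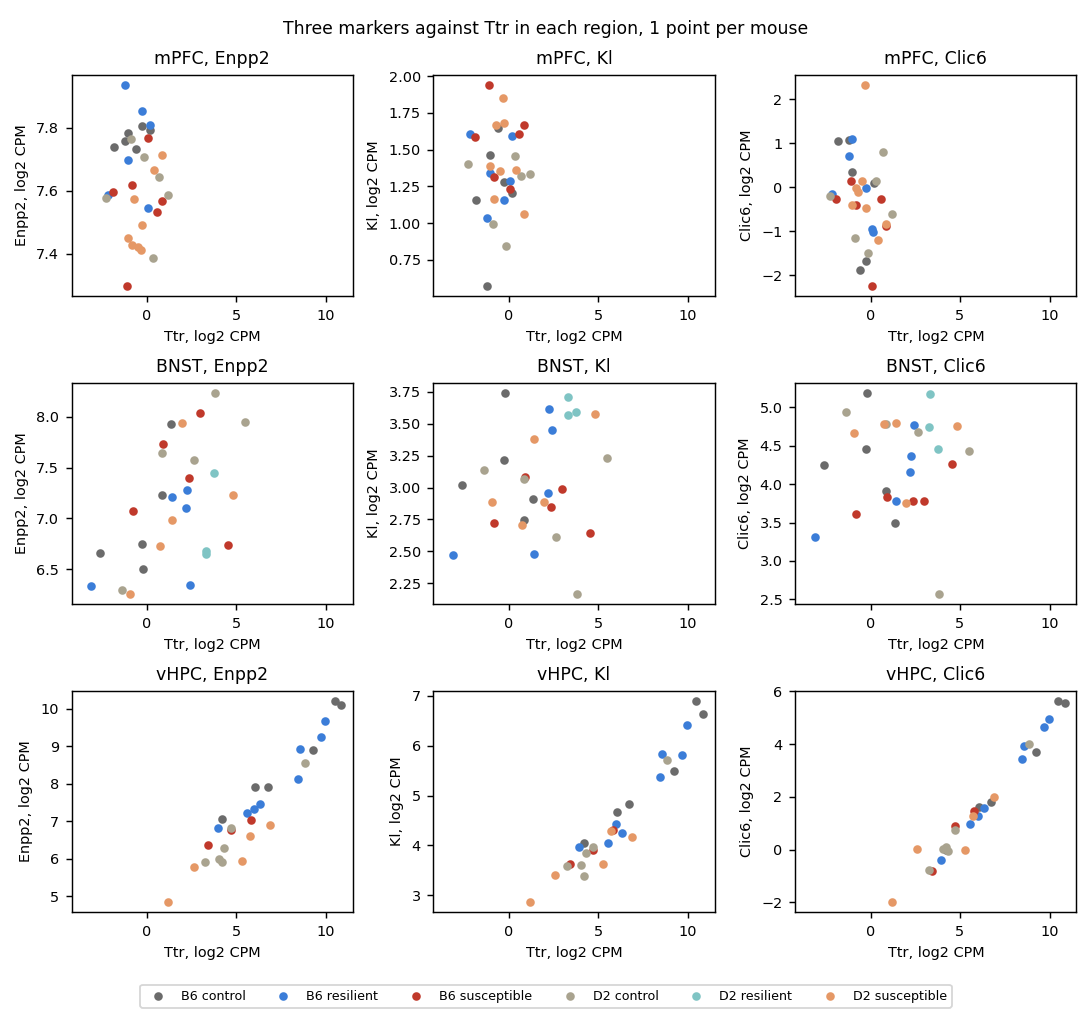
Enpp2, Kl and Clic6 (log2 CPM, y axis) against Ttr (log2 CPM, x axis) in each region, 1 point per mouse, coloured by strain and phenotype. The points form a line in the vHPC (r of 0.957, 0.942 and 0.975 with group means removed), while in the mPFC all Ttr values sit between −2.27 and 1.21 and in the BNST r is 0.553 for Enpp2, 0.202 for Kl and −0.032 for Clic6.

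In the mPFC, Ttr was low and no relation of the other genes with it passed the test. Ttr lay between −2.27 and 1.21, at or above 1 CPM in 11 of 32 mice. Enpp2 stood at 7.30 to 7.94 in every mouse, with an SD of 0.153, below the median SD of all genes (0.177). Kl lay between 0.57 and 1.94, Clic6 between −2.25 and 2.34, Kcnj13 between −0.54 and 1.01 and Aqp1 between −1.81 and 2.79. With group means removed, r with Ttr was −0.291 (Clic6) to 0.217 (Kcnj13), over 10 relations (lowest permutation p 0.0996, adjusted 0.178). Per kilobase of exon, the median log2 level of Enpp2 (5.10) was above that of Ttr (−0.65), the reverse of the order in the vHPC (4.52 and 5.53).

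A library from both regions came from each of 7 mice. The control B6 mouse with the highest vHPC Ttr, 10.88, had −0.61 in its mPFC. The other control B6 mouse measured 9.26 and −1.80, and the resilient B6 mice 6.32 and −0.27, and 8.55 and −1.06. The control D2 mouse had 4.22 in the vHPC and 0.71 in the mPFC, and the susceptible D2 mice 5.3 and −0.25, and 5.74 and −0.33. Ttr was above 4 in the vHPC and under 1 in the mPFC in each of the 7, and the mouse with the lowest vHPC value had the highest mPFC value.

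**Figure D3:**
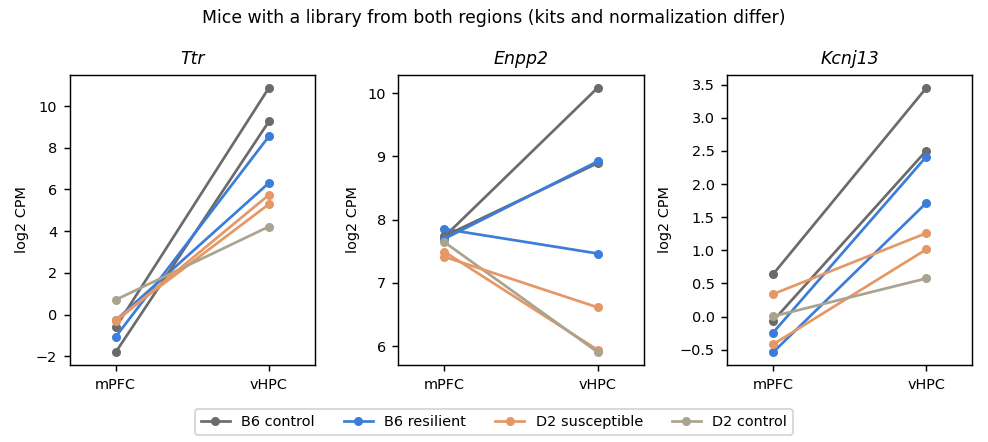
Ttr, Enpp2 and Kcnj13 (log2 CPM, y axis) in the 7 mice with both an mPFC and a vHPC library, joined by lines and coloured by strain and phenotype. Enpp2 starts within 7.41 to 7.85 in the mPFC and spreads from 5.91 to 10.08 in the vHPC; kits and normalization differ between the regions.

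In the BNST, Ttr varied widely. It ran from −3.10 to 5.5 (1 to 754 reads), an SD of 2.15 that exceeded that of 99.5% of 17515 genes. B6 controls measured −0.27, −2.60, 0.86, −0.21 and 1.36, and D2 controls −1.37, 0.84, 2.65, 5.5 and 3.81. The resilient B6 mice had 2.19, 2.44, −3.10, 2.27 and 1.40, the susceptible B6 mice 0.93, −0.79, 4.54, 2.98 and 2.36, the resilient D2 mice 3.78, 3.32 and 3.29, and the susceptible D2 mice −0.92, 4.81, 0.76, 1.42 and 1.98. The 3 resilient D2 mice sat close together (SD 0.274), and the other groups overlapped across most of the range. Folr1 had 0 to 10 reads a library (0 in 14 of 28), Kcne2 0 to 13, Kcnj13 0 to 14 and Aqp1 0 to 8. The 3 libraries with the most Ttr reads held the highest count of each of these 4 genes (for Folr1 and Aqp1 shared with another library). Susceptible D2 replicate 2 (754 Ttr reads) had 4, 13, 11 and 5 reads of them in that order, D2 control replicate 4 (607) had 10, 11, 6 and 6, and susceptible B6 replicate 3 (Ttr at 4.54) had 2, 4, 14 and 8. These counts are not scaled to depth, and susceptible B6 replicate 3 and susceptible D2 replicate 2 were deep libraries (25793910 and 21167139 reads, median 15273698). Scaled to log2 CPM, Aqp1 was highest in a resilient D2 mouse (−0.837), ahead of the susceptible B6 mice (highest −0.994). Folr1 and Kcne2 were highest in a D2 control (−0.359 and −0.228) and Kcnj13 in a susceptible B6 mouse (−0.223). Whether these 4 genes moved with Ttr was not tested. Clic6, at 110 to 725 reads, Kl, at 71 to 320, and Sostdc1, at 3 to 54, had no relation with Ttr past the threshold (r = −0.032, 0.202 and −0.045, permutation p = 0.901, 0.404 and 0.851, adjusted 0.903, 0.572 and 0.903, n = 28). Enpp2 had one (r = 0.553, permutation p = 0.00829, adjusted 0.0157; ρ = 0.557, adjusted 0.0109; r = 0.517 without the 2 farthest mice and 0.561 within library sets). Its r with the mean of 10 oligodendrocyte genes was 0.899, given as a description.

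How the 9 genes differed between groups was tested gene by gene over all genes of each region, with a call at an adjusted p under 0.05. In susceptible against control B6 mice in the vHPC, all 9 were lower, with a median log2 fold change of −2.54, and 3 of the 9 (33.3%) passed the test. Folr1 was lower by a log2 fold change of −4.39 (SE 1.06, limma adjusted p = 0.00221), and the groups did not overlap. Enpp2 was lower by −1.96 (SE 0.69, adjusted p = 0.0266) and Aqp1 by −2.75 (SE 1.03, adjusted p = 0.0354). Ttr, at −3.29 (95% interval −6.38 to −0.20, adjusted p = 0.0813), did not pass, and neither did Kl at −1.48 (0.0509), Kcnj13 at −1.14 (0.055), Kcne2 at −2.73 (0.0944), Sostdc1 at −1.55 (0.1) and Clic6 at −2.54 (0.108). Of all genes tested, 40.6% were called in this comparison and 20.1% were called lower, so the count of members is near the background. The count was 1 without B6 control replicate 3 or 5 or any 1 of the 3 susceptible mice, 5 without control replicate 2, 8 without control replicate 4, 1 with the sequencing set as a covariate and 0 with the library set. With the library set all 9 values were negative (median −2.69), while the median SE over all genes was 0.286, against 0.098 in the reported fit.

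Of the 6 B6 controls 3, and of the 8 resilient mice 4, stood above the widest gap in Ttr, and the intervals of comparisons with either group were wide. Between resilient and control B6 mice no member was called (0 of 9, none at an unadjusted p under 0.05, limma; 10.84% of all genes were called). Ttr was at −0.63 (95% interval −2.99 to 1.73), and the 9 values lay between −1.41 and −0.31 (median −0.50). With the sequencing set as a covariate the direction turned, with 3 of 9 values negative and a median of 0.107. When susceptible mice were set against resilient ones in B6, only Folr1 passed, at −2.98 (SE 1.02, adjusted p = 0.0329), while Aqp1 (−2.44, adjusted p = 0.0645) did not. Of all genes, 27.6% were called and 13.6% called lower. No member was called without resilient replicate 1 or any 1 of the 3 susceptible mice, with a covariate for library set or for the prefix of the mouse IDs, with only the groups compared, or with only genes of a mean log2 CPM of at least 1. Susceptible and control D2 mice gave no call (0 of 9, none at an unadjusted p under 0.05; 4.28% of all genes), with Ttr at −0.55 (95% interval −3.19 to 2.097) and Folr1 at −1.77 (−3.64 to 0.11), and all 9 were negative. With the library set as a covariate 2 of 9 were negative in this comparison, with a median of 0.394. The difference between the strains in the susceptible effect was not called for any of the 9 (none at an unadjusted p under 0.05; 0.782% of all genes), and its estimates were between 0.77 (Kcnj13) and 2.74 (Ttr, 95% interval −1.33 to 6.81).

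Between control mice of the strains, the vHPC levels of all 9 genes were lower in D2, and 8 passed the test, against 59.3% of all genes called and 29.1% called lower. Folr1 was lower by −4.87 (SE 0.87, adjusted p = 3.29e-05), Enpp2 by −2.103 (SE 0.57, adjusted p = 0.00255), Kcnj13 by −1.17 (adjusted p = 0.0111), Kl by −1.41 (0.0161), Kcne2 by −2.93 (0.02), Ttr by −3.04 (0.0352), Aqp1 by −1.96 (0.0469) and Clic6 by −2.37 (0.0499). Sostdc1, at −1.06 (95% interval −2.32 to 0.20, adjusted p = 0.141), did not pass. The groups overlapped for each gene, and D2 control replicate 2 stood among the high B6 mice for Ttr. Without that mouse all 9 passed. The count was 3 without B6 control replicate 5, 4 without B6 control replicate 3 or D2 control replicate 1, and 5 without B6 control replicate 6 or any 1 of D2 control replicates 3 to 6. With the sequencing set as a covariate 5 members passed, and with the library set 0 of 9, all of them negative (median −2.37). This comparison and those of B6 stress share the B6 controls. In order of mean Ttr the vHPC groups were B6 controls (7.94 ± 2.68, SD, n = 6), resilient B6 (7.31 ± 2.16, n = 8), D2 controls (4.89 ± 1.99, n = 6), susceptible B6 (4.65 ± 1.2, n = 3) and susceptible D2 mice (4.34 ± 2.35, n = 5). B6 controls and resilient B6 mice, and D2 controls and susceptible D2 mice, did not differ beyond their spread, and the means of the last 3 groups lay within 1 SD of each other; the step from resilient B6 mice to D2 controls was not tested.

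Because the 9 genes moved with Ttr, the vHPC comparisons were also fitted with each mouse's Ttr level as a covariate, an alternative chosen after the data were seen. Ttr is itself 1 of the 9 and the others correlate with it, so such a fit tends to pull their values toward 0. Most of the 8 remaining genes then lay closer to 0: in susceptible against control B6 mice Clic6 was at 0.15 (95% interval −0.50 to 0.80), Kcne2 at 0.07 (−0.51 to 0.64), Sostdc1 at 0.02 (−0.48 to 0.53), Kcnj13 at −0.24, Kl at −0.24, Enpp2 at −0.51 (adjusted p = 0.0683) and Aqp1 at −0.55 (adjusted p = 0.0774). Folr1 stood apart. It was lower at equal Ttr in susceptible B6 mice (−2.15, SE 0.32, adjusted p = 2.35e-05), in resilient B6 mice (−0.99, SE 0.23, adjusted p = 0.00463), in susceptible D2 mice (−1.39, SE 0.26, adjusted p = 0.00119), in susceptible against resilient B6 mice (−1.17, SE 0.30, adjusted p = 0.00554) and in D2 against B6 controls (−2.80, SE 0.27, adjusted p = 3.94e-09). Aqp1 also passed between susceptible and resilient B6 mice (−0.66, adjusted p = 0.0313) and Enpp2 between the control groups (−0.76, adjusted p = 0.00133), and no other of the 8 passed in any of the 6 comparisons. The share of all genes called with the covariate was 44.9%, 12.1%, 5.25%, 36.6% and 58.6% in the order given for Folr1, and 1.55% for the difference between strains in the susceptible effect. In each of these comparisons the group with less Folr1 also had the 88 strain-separating genes farther from B6 control levels in the D2 direction. For D2 against B6 controls this holds by definition, since that difference sets the direction. The slopes of B6 mice against controls use the same B6 controls. The part of that shift in the Folr1 values was not tested. Folr1 was low in D2 mice, with medians of −1.57 in controls and −2.61 in susceptible mice, where 0 is 1 CPM. The fits with Ttr used 1 slope for all mice and held no term for library set.

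**Figure D4:**
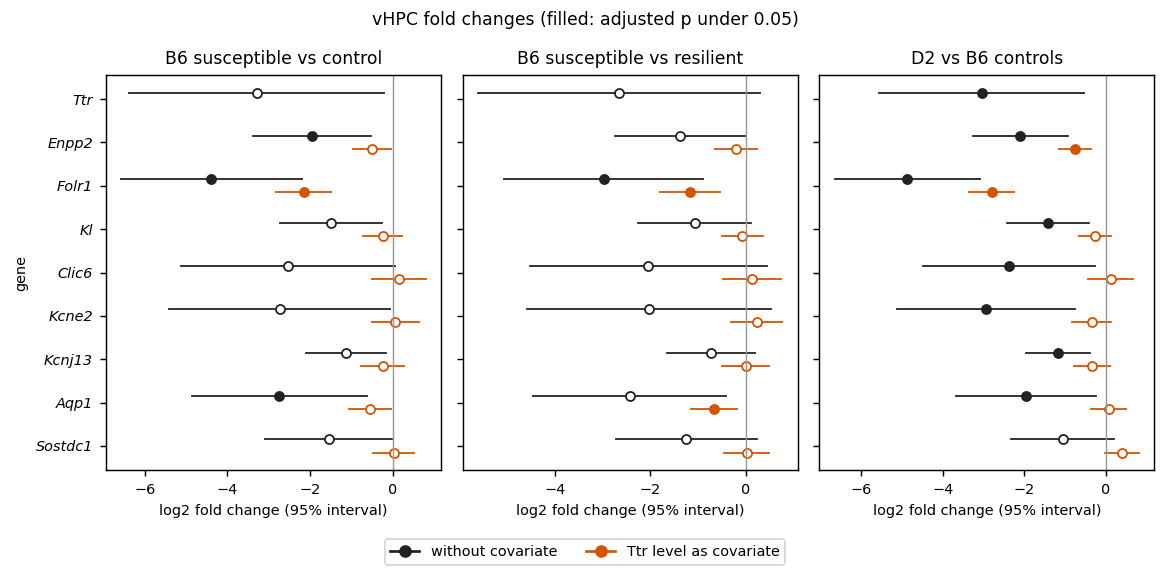
Log2 fold change (x axis, with 95% interval) of each gene in 3 vHPC comparisons, from limma without a covariate (black) and with the level of Ttr as a covariate (orange, 8 genes); filled points had an adjusted p under 0.05. Without the covariate all points are negative; with it Folr1 remains at −2.15, −1.17 and −2.80, and most of the others lie near 0.

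In the mPFC no member was called in any comparison (0 of 6 each time, limma). The share of all genes called was 0% for resilient and 2.22% for susceptible against control B6 mice, 2.02% for susceptible against resilient B6 mice, 0% for susceptible against control D2 mice, 27.8% for the control strains and 0% for the difference between strains in the susceptible effect. At an unadjusted p under 0.05 stood 2 members in susceptible against control B6 mice, Enpp2 at −0.20 (95% interval −0.35 to −0.06, adjusted p = 0.119) and Kl at 0.34 (0.02 to 0.66, adjusted p = 0.245), 2 between susceptible and resilient mice (Enpp2 at −0.17 and Kcnj13 at 0.56) and 1 between the strains (Enpp2 at −0.16), and none in the others. Ttr differed between susceptible and control mice by 0.42 in B6 (95% interval −0.64 to 1.47) and by −0.12 in D2 (−1.11 to 0.86). All 10 oligodendrocyte genes had negative values in the susceptible B6 mice there and 9 were called lower, with a median of −0.78 against 0.00 for all genes. When a term for the prefix of the mouse IDs was added, 0 of 18946 genes were called in that comparison, with the library set 39, and with only the groups compared 4.

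In the BNST no member was called either (0 of 5 each time, edgeR). The share of all genes called was 0.00571% for susceptible against resilient B6 mice, 2.51% for the control strains and 0% in each of the other 6 comparisons. Ttr had the largest values: 3.45 in D2 against B6 controls (SE 1.10, 95% interval 1.2 to 5.7, unadjusted p = 0.00404, adjusted p = 0.11), 2.65 in susceptible against control B6 mice (0.44 to 4.87, adjusted p = 0.711) and −3.51 for the difference between strains in that effect (−6.46 to −0.55, adjusted p = 0.323). The strain difference in Ttr had the opposite sign to that in the vHPC (−3.04). DESeq2 called it and made no other call among the members, and edgeR called it without D2 control replicate 1, while it was 2.202 without D2 control replicate 4. Kl, at 0.74 in resilient against control D2 mice (95% interval 0.18 to 1.29), was the remaining value at an unadjusted p under 0.05 (adjusted p = 0.858).

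To see what else in the libraries went with these genes, every gene was correlated over mice with the mean of the members, group means removed, as a description. The gene lists used here were chosen with earlier results of these data known. In the vHPC, all 32 genes with a row of a wider list of 34 choroid plexus genes had an r over 0.5 (median 0.921), against 10.3% of all genes. The 3 highest were Tmem72 (0.994), Prlr, the prolactin receptor (0.985), and F5, coagulation factor V (0.981). Outside every list the highest were Rbm47 (0.951), Fap (0.949), Cdr2 (0.949), Col9a3 (0.948) and Drc7 (0.946). The medians of other lists were 0.607 for 10 oligodendrocyte, 0.546 for 11 meningeal fibroblast, 0.532 for 5 cortical neuron and 0.487 for 12 ependymal genes, 0.377 for 5 hippocampal neuron, 0.259 for 7 endothelial, 0.24 for 5 GABAergic neuron and 0.139 for 5 red blood cell genes. In the BNST, where 1.2% of all genes were over 0.5, only 1 of 24 wider genes was (Rdh5, 0.552, ahead of Prlr at 0.449 and Slc2a12 at 0.445), and the nearest others were Ptch1 (0.727), Gm10069 (0.713), Nkx2-1 (0.693), Tnfaip8 (0.687) and Sfrp5 (0.682). In the mPFC, where 6.8% of all genes were over 0.5, 4 of 21 wider genes were, led by Trpm3 (0.736), Igfbp2 (0.604) and F5 (0.546). The nearest others there were Pappa (0.821), Slc18a2 (0.818), Pde1c (0.813), Nt5e (0.803) and Maml3 (0.803), and the 5 GABAergic forebrain neuron genes were all over 0.5 (median 0.688). The mPFC members did not share 1 course: their r with their own mean ran from −0.478 (Enpp2) to 0.772 (Aqp1), with Ttr at 0.308. These points share library, depth and batch adjustment.

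**Figure D5:**
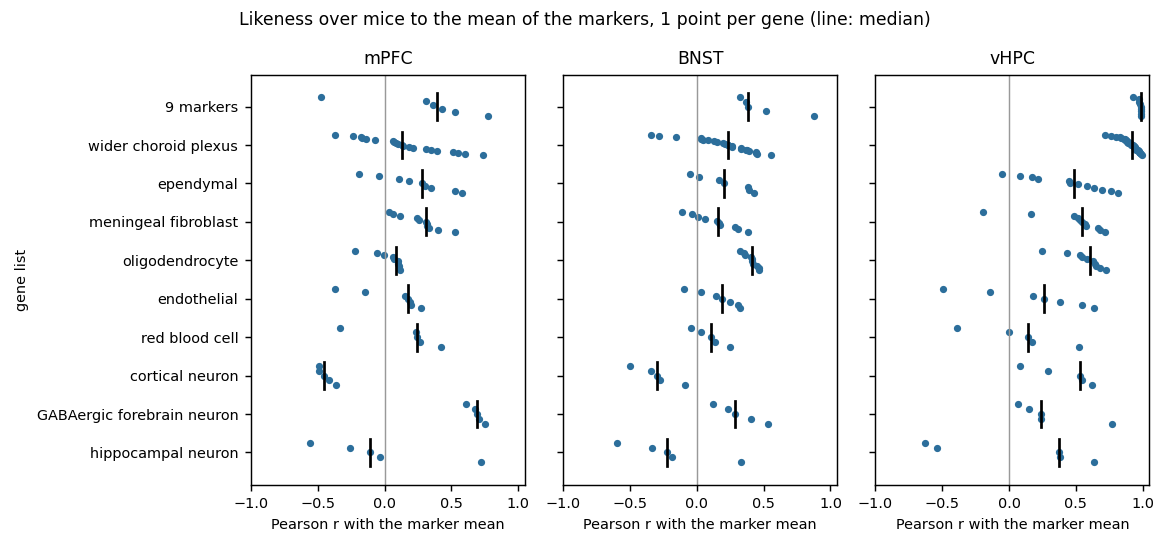
Pearson r over mice (x axis, group means removed) between each gene and the mean of the choroid plexus markers, by gene list (y axis) and region, 1 point per gene with a line at the list's median. In the vHPC the 9 markers and the wider list sit near 1 (medians 0.986 and 0.921) and the oligodendrocyte list at 0.607. In the mPFC and BNST the markers themselves reach medians of only 0.395 and 0.38. Each marker is part of the mean it is set against (9 genes in the vHPC, 6 in the mPFC, 5 in the BNST), which raises its r, unlike genes of the other lists.

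The other gene lists were counted in the same vHPC fits as the 9 genes. In susceptible against control B6 mice 3940 of the 19559 genes were called lower and 4009 higher, and with the library set as a covariate 202 were called in place of 7949. There, without that covariate, 19 of 32 wider choroid plexus genes were lower (median log2 fold change −1.42, against −0.01 for all genes), among them Otx2 (−2.82, adjusted p = 0.0348), while Tmem72 was at −2.82 with an adjusted p of 0.144. Of 12 ependymal genes 9 were lower (Foxj1 −0.89, Ccdc153 −1.55), of 11 meningeal fibroblast genes 5 (Col1a2 −0.89, with Col1a1 at −0.25 not called), of 10 oligodendrocyte genes 10 (Mbp −0.60) and of 7 endothelial genes 5 (Cldn5 −0.54, Pecam1 −0.51). All 5 cortical neuron genes were higher (Slc17a7 0.22), as were 2 of 5 GABAergic neuron genes (Gad2 0.26, with Gad1 at 0.13 not called), and 2 of 5 hippocampal neuron genes were lower (Prox1 at −0.05 and Zbtb20 at 0.02 not called). Of 5 red blood cell genes 1 was lower, Hba-a2, at −4.39, which stood at −9.27 in D2 against B6 controls; its near-identical copy Hba-a1, with which it can share reads, was at 0.29 and 0.70. The wider choroid plexus, ependymal, meningeal fibroblast, oligodendrocyte and endothelial lists were lower at the median, as the 9 genes were. The cortical neuron list was higher (median 0.623). The GABAergic neuron, hippocampal neuron and red blood cell lists had medians of 0.13, −0.047 and −0.063. The part of any list in the results was not tested. With the level of Ttr as a covariate, 7 wider choroid plexus genes were called lower and 1 higher (median −0.30), and the counts called lower were 5 for ependymal, 1 for meningeal, 9 for oligodendrocyte (median −0.67, from −0.85 without the covariate) and 4 for endothelial genes. Between the control strains, 21 of 32 wider choroid plexus, 11 of 12 ependymal and 10 of 10 oligodendrocyte genes were lower in D2, against 29.1% of all genes. With the covariate 12, 9 and 10 of them were lower, and 3 wider choroid plexus genes were higher. All genes called with the covariate, in either direction, were 44.9% in susceptible against control B6 mice and 58.6% between the control strains.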

How the data were processed

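RNA-seq was done on tissue of 1 mouse per library. Per the study's methods, the authors trimmed reads (FastX toolkit, or Cutadapt for the vHPC), removed duplicates with PRINSEQ, aligned with STAR to GRCm38 and counted reads on exons with HTSeq. Removing duplicates can lower the values of very abundant genes. Kits differed: ScriptSeq v2 with Ribo-Zero (mPFC), NuGEN Ovation with InDA-C (BNST) and Nextera with Ribo-Zero (vHPC). For the mPFC and vHPC the authors deposited log2 CPM values, already filtered (at least 1 CPM in 6 libraries), turned into log2 values by voom and corrected by ComBat for library set (and, in the vHPC, sequencing set), so depth is not known there. For the BNST the deposited values are raw read counts.

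The mPFC and vHPC values were fitted with limma 3.58.1 (all groups of a region, robust empirical Bayes, no covariate). The BNST counts were fitted with the edgeR 4.0.16 quasi-likelihood test after TMM scaling, with the same filter of at least 1 CPM in 6 libraries, and its levels are log2 CPM with a prior count of 0.5. p-values were adjusted by Benjamini-Hochberg over all genes of a region. ComBat came before the fits, which can make the p-values of the mPFC and vHPC too small. Correlations used 100000 permutations within groups (SciPy 1.17.1).

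The members and gene lists were chosen with earlier results of these data known. All 9 members were named in every comparison, and per region the 5 genes outside the lists and the 3 of the wider choroid plexus list most correlated with the mean of the members tested there. Of the other lists, the counts called, the median and the first 2 genes are given, except for genes that are not reported here. Groups came from the labels. Gene positions and exon lengths came from an annotation of GRCm38 (release M21) that matched 99.56% (mPFC), 99.26% (BNST) and 99.61% (vHPC) of gene identifiers. The steps were tested on simulated data. Alternatives changed the empirical Bayes options, the filter, the normalization, the tool (DESeq2 1.42.0 in the BNST), batch covariates, the groups fitted and the mice included.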

Additional observations from a re-analysis of the deposited data

Results flagged for a closer look

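In 12 of the 105 sets of values looked at (1 gene, or the mean of the members, in 1 group of 4 to 10 mice), the highest or lowest mouse stood apart from the rest by more than Dixon's 95% critical value, which chance exceeds in about 1 of 20 sets. The sets are not independent, since the genes vary together.

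In the vHPC, D2 control replicate 2 was the highest of its group for Ttr (8.838, with the next mouse at 4.692), Enpp2 (8.551, next 6.81), Kl (5.722, next 3.974), Clic6 (4.016, next 0.73), Aqp1 (2.748, next −0.188), Folr1 (1.809, next −1.028) and the mean of the 9 genes (4.35, next 1.817). Without it all 9 genes were called lower in D2 than in B6 controls.

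In the BNST, Clic6 was lowest in D2 control replicate 5 (2.571, next 4.426) and in D2 susceptible replicate 5 (3.758, next 4.667), and Ttr was lowest in B6 resilient replicate 3 (−3.103, next 1.397). In the mPFC, Clic6 was highest in D2 susceptible replicate 7 (2.338, next 0.149) and Kcnj13 in D2 control replicate 4 (1.013, next 0.003).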

How the results depend on the processing

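Counts of members called and of genes most like the members, tallied with the vHPC mean of the members, stayed near the reported value in 132 instances and moved in 21. Near means within 1.5 times for a count, and within 1 SD of B6 controls for the mean (susceptible minus control B6 mice). A count of 0 that stayed 0 is among the 132, and the reported count of members called was 0 in every mPFC and BNST comparison. Fits without 1 mouse are left out of this tally and of that for single values below. In the vHPC, the count in susceptible against control B6 mice (3 as reported) was 0 with library set and 1 with sequencing set as a covariate, and 1 to 8 with 1 mouse left out. Between susceptible and resilient B6 mice (1) it was 0 with only genes of a mean log2 CPM of at least 1, with library set, with mouse ID prefix or with only the groups compared, 2 after quantile normalization, and 0 to 1 with 1 mouse left out. Between the control strains (8) it was 0 with library set, 5 with sequencing set, 5 with genes of a mean of at least 1, 5 with only the groups compared, and 3 to 9 with 1 mouse left out. With the level of Ttr as a covariate, chosen after seeing the data, the counts were 1 (resilient B6), 1 (susceptible B6), 1 (susceptible D2), 2 (susceptible against resilient B6) and 2 (control strains), and between the control strains Clic6 (0.12) and Aqp1 (0.072) reversed. In the mPFC quantile normalization gave 1 call between the strains (Enpp2), and in the BNST DESeq2 gave 1 (Ttr), with 0 to 1 when 1 mouse was left out. With group means kept, 2 (mPFC), 1 (BNST) and 1 (vHPC) of the 5 genes most like the members stayed among the 5. Except where stated, the cause was not tested. Folr1 remained past the threshold in 9 of 9 fits without 1 mouse for susceptible against control B6 mice, 12 of 12 for the control strains and 7 of 11 for susceptible against resilient mice. Of the values of single genes, 709 were kept and 57 moved, while 30 lost and 10 gained a call. A kept fold change had the same direction and side of the threshold, and a moved one changed sign without a call. The tally also holds the BNST level difference between the control strains under other scalings, kept where within 1 SD of B6 controls. Mouse ID prefix could not be fitted for the control strains of the 3 regions, nor for resilient against control or susceptible against resilient D2 mice in the BNST. No paired analysis was possible because the groups compared hold different mice and the labels carry no replicate numbers. The 3 susceptible B6 mice and low levels of Folr1, Kcne2, Kcnj13 and Aqp1 in the BNST limit what could be detected.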
